A study of Mus musculus with 6 samples.

Results

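Lix1 and Lix1l, the 2 mouse genes of the limb and CNS expressed 1 family, were examined in bulk RNA-seq counts of the embryonic maxillary prominence, the facial swelling that forms the upper jaw and palate. Both genes were found by their symbols in the GENCODE annotation of mm10, and they are 2 of the 53801 genes in the files. Lix1 was chosen by its counts in the 2 genotypes, as the steadiest rise between them, so its values and those of its paralog in that comparison are given as a description, without a test. The samples were 3 WT and 3 wnt1cre; Rosa26Dlx2/- (Dlx2OE) maxillary prominences of C57BL/6J embryos at E12.5. In Dlx2OE embryos, Wnt1-driven Cre removes a stop cassette in the neural crest lineage, and a CAG promoter at Rosa26 then drives Flag-tagged Dlx2. The WT embryos are labelled wild type, with neither allele named, so the effects of Cre, of the Rosa26 insertion and of Dlx2 cannot be told apart here. The tissue also holds surface epithelium, vessels, blood and nerve, which do not come from the crest or recombine only in part. The submitters describe the RNA as coming from 7 littermates in the sample labels and from 6 in the methods, with 3 independent RNA samples per genotype, so a sample may pool embryos and the spread between samples may be partly technical.

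Lix1 takes its name from limb expression 1, a gene first described in the developing chick limb. Its proteins are the vertebrate counterparts of Drosophila lowfat, which binds the intracellular parts of the giant cadherins Fat and Dachsous and helps to keep their levels up. Fat and Dachsous act upstream of the Hippo kinases, which hold the coactivators YAP1 and TAZ out of the nucleus, and they also set planar polarity, the orientation of cells within a sheet. In stomach mesenchyme, LIX1 has been described as a marker of smooth muscle progenitors that acts on YAP1. Lix1l is the closely related paralog and has been described as an RNA-binding protein.

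Lix1 (ENSMUSG00000047786) lies on the forward strand of chromosome 17 from 17402672 to 17459387 in GRCm38, a span of 56716 bp. Its exons together cover 3434 bp, and its longest coding transcript encodes 846 bp in 6 exons. None of its exonic bases overlapped an exon of another gene. Lix1l (ENSMUSG00000049288) lies on the forward strand of chromosome 3 from 96601149 to 96626171, a span of 25023 bp, with 3620 bp of exon and a coding length of 1011 bp, also in 6 exons. A share of 2.87% of its exonic bases overlapped the antisense pseudogene 6330549D23Rik, which had 2.41 ± 0.225 CPM in WT against 3.10 ± 0.781 CPM in Dlx2OE (SD, n = 3 per genotype). The library kit does not mark strand, so reads in that overlap cannot be assigned to 1 of the 2 genes.

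Because the comparison rests on telling the 2 paralogs apart, their coding sequences were aligned codon by codon. Of 264 aligned codon pairs, 148 (56.1%) encoded the same residue, and 473 of 792 aligned bases (59.7%) were identical. The most alike stretch of 90 bases is printed below from 5′ to 3′, from the GENCODE M21 transcripts, with the bases that differ between the genes in capitals. In Lix1 it is coding bases 469 to 558, which span chr17:17446049-17454334 across 2 exons. In Lix1l it is coding bases 679 to 768, which span chr3:96621390-96622217, also across 2 exons.
Lix1: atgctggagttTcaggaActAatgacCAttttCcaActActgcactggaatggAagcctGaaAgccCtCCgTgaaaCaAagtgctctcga
Lix1l: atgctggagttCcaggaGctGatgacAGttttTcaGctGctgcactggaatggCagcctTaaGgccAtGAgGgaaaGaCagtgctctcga
Even here 17 of the 90 bases differed, 12 of them at the last position of a codon, and 26 of the 30 codons encoded the same residue. The longest run shared exactly by the transcripts of the 2 genes was 29 bases, against a read length of 150 bases, and no run of read length was shared.

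A second near-copy concerns Lix1 alone. Gm11578 (ENSMUSG00000082160), a processed pseudogene on the reverse strand of chromosome 1 from 60592251 to 60592709, was identical over all of its 459 bases to the end of the Lix1 coding sequence, coding bases 388 to 846. This stretch is 54.3% of the Lix1 coding sequence and 13.4% of its exonic length, and it contains the 90-base window printed above. Reads that fall wholly within it match both places, and htseq-count by default leaves such reads out. Gm11578 itself had 0 counts in each WT sample and 3, 2 and 4 counts in Dlx2OE samples 1 to 3, at or near the floor of 3 counts. Levels of Lix1 per length are therefore lower limits, while its fold change uses the same exons in both genotypes. Counts from Lix1l had no such limit in their coding sequence, where 0 of 962 runs of 50 bases occurred in a transcript of another gene.

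Gene counts totalled 26155500 to 31308813 per library. Reads aligned once but outside annotated genes were 5.34% to 8.21% of uniquely aligned reads in 5 libraries and 15.4% in Dlx2OE 3, which stands apart in this measure. Dlx2 itself had 42.9, 35.0 and 45.2 CPM (counts scaled to library size by TMM) in WT and 119, 131 and 123 CPM in Dlx2OE, and rose by 1.60 on the log2 scale (SE 0.118, adjusted p = 0.00241, edgeR quasi-likelihood test). Of 17514 genes tested, 262 (1.5%) were called higher in Dlx2OE and 284 (1.62%) lower, 3.12% in either direction. A call needed an adjusted p under 0.05 together with a log2 fold change past 1 or -1. Both Lix1 and Lix1l passed the filter on low counts.

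Lix1 had 252, 269 and 306 counts in WT samples 1 to 3 and 2349, 2306 and 1998 counts in Dlx2OE samples 1 to 3. On the CPM scale WT samples stood at 8.61, 8.93 and 9.81 and Dlx2OE samples at 79.3, 73.4 and 73.8. Every Dlx2OE sample was far above every WT sample, and the lowest Dlx2OE value was 7.48 times the highest WT value. The group means were 9.12 ± 0.624 and 75.5 ± 3.29 CPM (SD, n = 3 per genotype). The fitted log2 fold change was 3.05 (SE 0.105), an 8.28-fold difference with a range of 7.69 to 8.90 at 1 SE. Lix1 stood first of 17514 genes when ordered by p, the measure by which it was chosen, and was followed by Lef1, a nuclear partner of beta-catenin, F3, the tissue factor of coagulation, and the homeobox zinc finger gene Zfhx3. By fold change it stood only at place 51 among the 262 genes called higher. These values come from whole tissue, in which more cells expressing Lix1 and more Lix1 RNA per cell cannot be told apart.

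**Figure D1:**
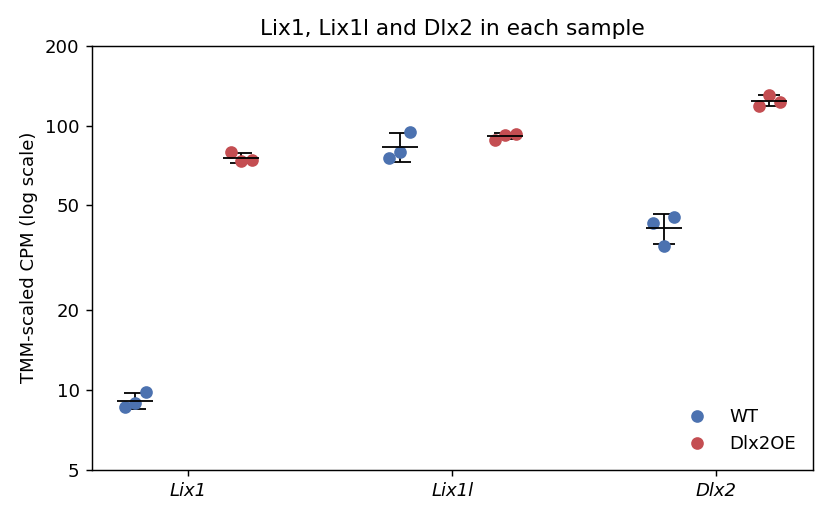
Level of Lix1, Lix1l and Dlx2 in each sample, as TMM-scaled CPM on a log axis, with the mean and SD over 3 samples per genotype. The Lix1 points of Dlx2OE, 73.4 to 79.3 CPM, are separated from the WT points, 8.61 to 9.81 CPM, while the Lix1l points of the 2 genotypes overlap.

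Lix1l, in contrast, had 2204, 2400 and 2956 counts in WT and 2619, 2899 and 2515 counts in Dlx2OE. As CPM, it stood at 75.3, 79.6 and 94.8 CPM in WT against 88.4, 92.3 and 92.9 CPM in Dlx2OE. The groups overlapped: WT sample 3 lay above all 3 Dlx2OE samples and WT samples 1 and 2 below them. The mean was 83.2 ± 10.2 CPM in WT against 91.2 ± 2.43 CPM in Dlx2OE (SD, n = 3 per genotype), which is 0.13 on the log2 scale (SE 0.108) or 1.10-fold. The difference depended on single WT samples, with a log2 fold change of 0.06 without WT 1 and 0.23 without WT 3. For Lix1, leaving out each sample in turn gave 3.00 to 3.10.

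The fitted fold changes of both genes under 14 settings kept these positions. Over all alternatives to the design used here, including other scalings, DESeq2, a replicate term and the removal of each sample, the log2 fold change of Lix1 stayed between 3.00 and 3.11. Without Dlx2OE 3, the library with the most reads outside genes, it was 3.07.

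**Figure D2:**
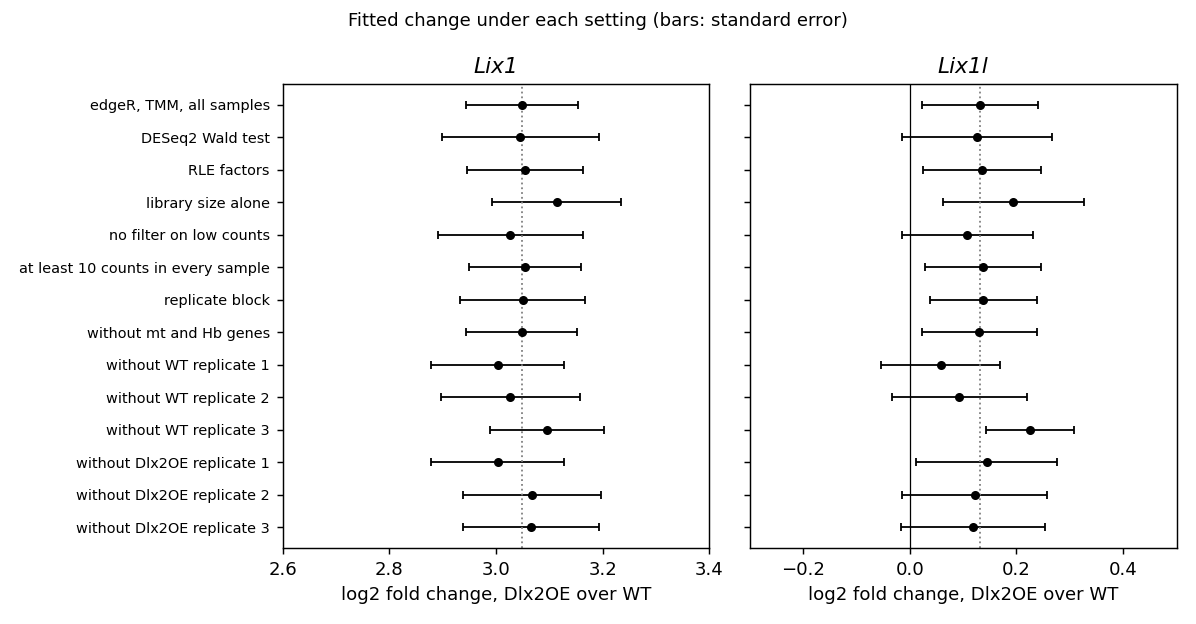
Fitted log2 fold change (Dlx2OE minus WT) of Lix1 and Lix1l under each of 14 settings of the fit, with bars of 1 SE. Lix1 stays between 3.00 and 3.11 in every setting, and Lix1l stays near 0 with its largest value, 0.23, in the fit without WT 3.

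To compare the 2 genes with each other, levels were expressed per kilobase of exon. Lix1 rose from 2.65 ± 0.182 RPKM in WT to 22.0 ± 0.957 RPKM in Dlx2OE (SD, n = 3 per genotype). Among tested genes with a known length, this is a move from percentile 42.0 to percentile 87.3 of the level per length. Lix1l had 23.0 ± 2.83 RPKM in WT and 25.2 ± 0.673 RPKM in Dlx2OE, at percentiles 87.4 and 89.2. In WT tissue Lix1l was thus by far the more abundant paralog, and in Dlx2OE tissue the levels of the 2 genes per length were close.

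The ratio of Lix1 to Lix1l, taken per length within a sample, was 0.121, 0.118 and 0.109 in WT samples 1 to 3. In Dlx2OE samples it was 0.945, 0.839 and 0.837, below 1 in each of the 3. Expressed as a share of the summed level of both genes, Lix1 made up 10.8%, 10.6% and 9.84% in WT and 48.6%, 45.6% and 45.6% in Dlx2OE, with means of 10.4% ± 0.484 and 46.6% ± 1.74 (SD, n = 3 per genotype). The summed level rose from 25.7 ± 3.01 to 47.2 ± 0.313 RPKM. With the bases shared with Gm11578 left out of the Lix1 length, a calculation added after the data were seen, Lix1 had 3.06 ± 0.210 and 25.4 ± 1.10 RPKM. The WT samples then had shares of 12.2%, 12.0% and 11.2%, and the Dlx2OE samples had 52.2%, 49.2% and 49.2%. The means were 11.8% ± 0.542 and 50.2% ± 1.74 (SD, n = 3 per genotype). Reads that reach past the shared bases still count for Lix1, so these values are upper limits with regard to Gm11578. Even at this limit Lix1 was the more abundant of the pair only in Dlx2OE sample 1, and these values do not settle whether it was so there.

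**Figure D3:**
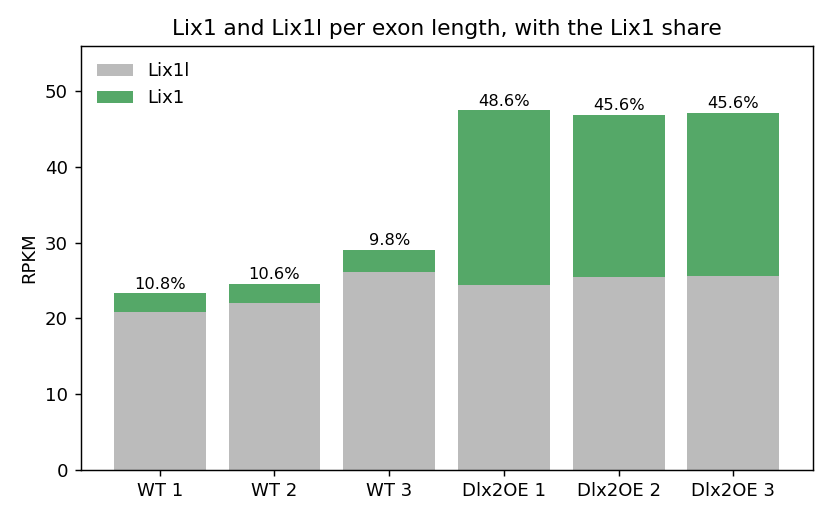
Stacked level of Lix1 and Lix1l per kilobase of exon (RPKM) in each of the 6 samples, with the percentage made up by Lix1. The Lix1 part grows from 9.84% to 10.8% in WT to 45.6% to 48.6% in Dlx2OE, while the Lix1l part is of similar height in all samples.

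The evenness of Lix1 between samples was compared with that of genes of like level. Its coefficient of variation was 6.85% in WT, where counting alone would give 5.72% to 6.30%, and 4.35% in Dlx2OE, where counting alone would give 2.06% to 2.24%. Among 1842 genes whose mean lay within 1.5-fold of Lix1 in WT, the median coefficient was 14.2%, and 15.3% of them varied less than Lix1. In Dlx2OE the median over 2792 genes of like level was 7.95%, and 19.0% varied less. Lix1 was therefore even, but many genes of its level were as even in either genotype. A rise of at least the same fitted size was found in 79 tested genes, Lix1 included, of which 23 had a WT mean of at least 1 CPM. Of those 23, Lix1 was the only gene with a coefficient under 10% in both genotypes, a limit chosen after the values were seen. Because Lix1 was chosen as the steadiest rise in these samples, this restates the choice and adds no support to it. Lix1l varied by 12.3% in WT, where 58.8% of 2745 genes of like level varied less, and by 2.67% in Dlx2OE, where 7.74% of 2546 genes did.

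Genes whose levels followed Lix1 over the 6 samples were listed by Pearson's r of log2 CPM, as a description. All points share the genotype step, so a high r needs little more than a change between genotypes and low spread. The 5 highest were Far2, a fatty acyl-CoA reductase (r = 0.998), Uba1, the main ubiquitin-activating enzyme (0.996), Lef1 (0.995), Bves, a membrane protein of the Popeye family (0.994), and Tbcd, a tubulin folding cofactor (0.993). The size of the step differed widely among them. Lef1 went from 14.0 ± 0.721 to 131 ± 28.2 CPM, a log2 fold change of 3.23, whereas Far2 had 1.19, Bves 1.05, Tbcd 0.33 and Uba1 0.24. Between Lix1 and Lix1l the r was 0.584. For Lix1l the highest value was that of the histone demethylase gene Kdm1a (r = 0.991), with a log2 fold change of 0.16, followed by Ell, Klhl15, the gene listed only as ENSMUSG00000109836, and Ciz1, at 0.979 to 0.985.

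Genes around the 2 loci were examined to see whether other transcripts of the regions changed. Of 18 genes in the files that start within 500 kb of the Lix1 start, 9 were tested and 0 were called, by edgeR and by DESeq2. Over all tested genes edgeR called 3.12%, and DESeq2 called 2.55% higher and 2.51% lower. An unadjusted p under 0.05 was found for 2 of the 9, a threshold passed by 29.5% of all tested genes. The log2 fold changes of the 9 ran from -0.35 to 1.22, with a median of 0.31 against 0.00 over all tested genes. Lnpep, an aminopeptidase of insulin-regulated vesicles whose start lies 222378 bp downstream, had 26.1, 23.0 and 37.9 CPM in WT against 54.8, 51.8 and 50.6 CPM in Dlx2OE. Its samples did not overlap between genotypes, which held for 16.7% of all tested genes in the direction of a rise, and its log2 fold change was 0.85 (SE 0.179, adjusted p = 0.0360, edgeR). It was the only 1 of the 9 with an adjusted p under 0.05, against 6.45% of all tested genes. The adjusted p of Lnpep was above 0.05 in 4 of the 6 fits that left out a sample, with 0.132 without WT 2, 0.116 without WT 1, 0.101 without Dlx2OE 2 and 0.0824 without Dlx2OE 3. Without WT 3 its log2 fold change was 1.08, past the fold threshold. DESeq2 on all samples gave Lnpep an adjusted p of 0.000563 and a log2 fold change of 0.85. The antisense transcript Gm26873, whose locus overlaps the Lix1 span but none of its exons, had 2.96 ± 0.572 and 4.11 ± 1.36 CPM (log2 fold change 0.47, adjusted p = 0.316, edgeR). Upstream, the nearest tested gene, Oaz1-ps, had a log2 fold change of -0.35 (adjusted p = 0.422) and Gm6712 had 0.46 (adjusted p = 0.217). Has1, a hyaluronan synthase gene 452533 bp downstream, gave the largest value of the region, 1.22 (SE 0.408, adjusted p = 0.101), and it was 0.79 without Dlx2OE 3 and 1.54 (adjusted p = 0.0200) without Dlx2OE 1.

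Around Lix1l, 79 genes in the files start within 500 kb, 31 were tested and 0 were called, by edgeR and by DESeq2. Over all tested genes edgeR called 3.12%, and DESeq2 called 2.55% higher and 2.51% lower. With an adjusted p under 0.05 at any fold change there were 0 by edgeR, against 6.45% of all tested genes, and 2 by DESeq2. At an unadjusted p under 0.05 there were 7, where 29.5% of all tested genes were. Their log2 fold changes ran from -0.67 to 0.73 with a median of -0.15. The nearest, Ankrd34a, had -0.18 (adjusted p = 0.734, edgeR), and the RNA polymerase III subunit gene Polr3gl had -0.14 (adjusted p = 0.520). On the other side, the pseudogene 6330549D23Rik, the nearest by its start, had 0.36 (adjusted p = 0.376). Next to it, Rbm8a, a core part of the exon junction complex, had -0.31 (adjusted p = 0.161).

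**Figure D4:**
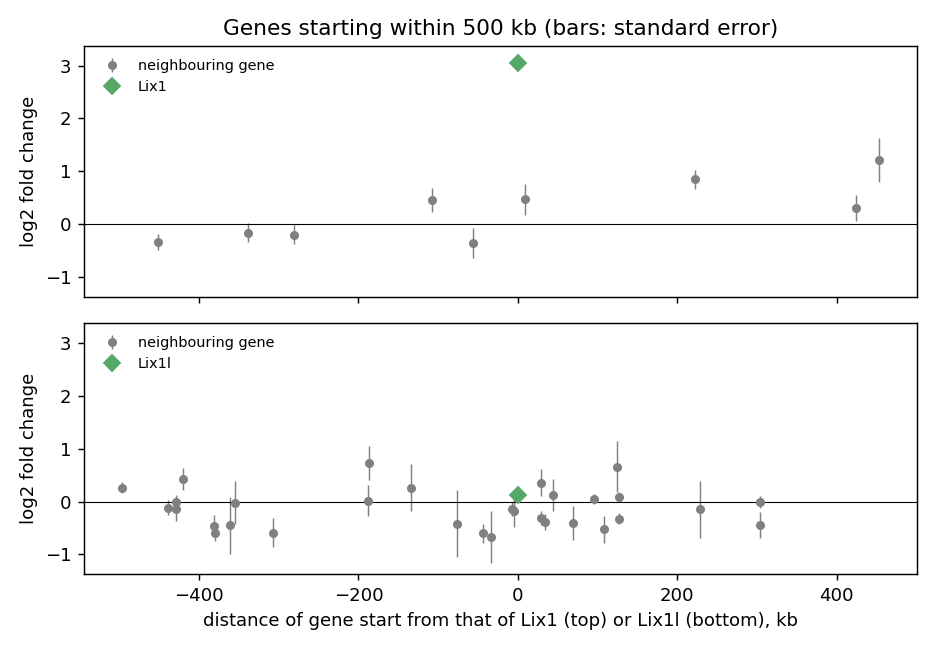
Log2 fold change (Dlx2OE minus WT, with 1 SE) of tested genes against the distance of their start from the start of Lix1 or of Lix1l, in kb. Lix1 at 3.05 stands above all of its tested neighbours, which lie between -0.35 and 1.22, and the neighbours of Lix1l lie between -0.67 and 0.73.

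The 250 bases before the RefSeq start of each gene were read for short homeodomain motifs because Dlx2 is a homeodomain factor that binds sequences with a TAAT core. The window of Lix1 (chr17:17402436-17402685, forward strand, GRCm38.p6) is printed from 5′ to 3′ with its only TAAT, 183 bp before the start, in capitals.
Lix1 promoter: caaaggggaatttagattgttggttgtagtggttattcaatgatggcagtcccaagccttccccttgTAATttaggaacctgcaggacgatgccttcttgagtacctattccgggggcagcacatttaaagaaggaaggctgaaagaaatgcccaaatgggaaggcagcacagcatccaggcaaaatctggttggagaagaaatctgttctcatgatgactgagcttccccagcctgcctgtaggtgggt
A TAAT on either strand was present in 54.9% of 32851 promoter windows of the same 250 bases, so most windows share it. The longer forms TAATTA and TAATTG, which both contain TAAT, and GGAATG, the core bound by the TEAD factors, had no match on either strand in either window and occurred in 4.84%, 7.17% and 12.6% of windows. The Lix1l window (chr3:96600883-96601132) had no TAAT, and 10 CG dinucleotides against 2 in Lix1 and a median of 6 over all windows. These are matches of letters in 1 short window and say nothing of binding.

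Genes of the pathways in which the Lix1 family is placed were then followed in 5 lists, which were drawn up with earlier results of these data known. Of 75 listed genes 73 were tested. By edgeR, 0 were called higher, against 1.5% of all tested genes, and 4 (5.48%) were called lower, against 1.62%. Unadjusted p-values under 0.05 were found for 17 genes with higher and 12 with lower values, 39.7% of the 73. Over all tested genes this share was 29.5% (5172 genes), 14.1% higher and 15.4% lower, the background for the same count in each list below. Over all genes DESeq2 called 2.55% higher and 2.51% lower, and in these lists it called 0 higher and 5 lower. With an adjusted p under 0.05 at any fold change, 5 genes were higher and 5 lower, where 2.99% and 3.46% of all tested genes were. Over the 73 genes, the median of the log2 fold change was 0.09 against 0.00 over all tested genes.

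Genes of the Fat and Dachsous cadherin families and of their kinase were all tested, and 0 of 7 were called. At an unadjusted p under 0.05 there were 2 (28.6%) with higher and 0 with lower values, against 14.1% and 15.4% of all tested genes. DESeq2 also called 0. Values were positive for 6 of the 7, with a median log2 fold change of 0.38. Fat1, a giant cadherin, had 386 ± 83.7 CPM in WT against 591 ± 84.1 CPM in Dlx2OE, a log2 fold change of 0.62 (adjusted p = 0.0794). Dchs1, which encodes a Dachsous cadherin, had 0.56 (adjusted p = 0.0945), and Fat4, its receptor, had 0.38 (adjusted p = 0.171). Fjx1, the counterpart of the fly kinase four-jointed, had 0.37 (adjusted p = 0.342). By edgeR, these 4 were short of the threshold. DESeq2 gave adjusted p-values of 0.0115 for Fat1, 0.0262 for Dchs1, 0.153 for Fat4 and 0.338 for Fjx1, with all 4 short of the fold threshold.

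In the planar polarity list 0 of 12 genes were called by edgeR or DESeq2. At an unadjusted p under 0.05 there were 4 (33.3%) with higher and 0 with lower values, against 14.1% and 15.4% of all tested genes. Values were positive for 10 of the 12, with a median log2 fold change of 0.25 against 0.00 over all tested genes. Fzd3, a Frizzled receptor, had 101, 103 and 127 CPM in WT against 198, 159 and 163 CPM in Dlx2OE. Its samples did not overlap, as for 16.7% of all tested genes in the direction of a rise. Fzd3 was higher by 0.65 on the log2 scale (adjusted p = 0.0348, edgeR, and 0.00134, DESeq2), short of the fold threshold. By edgeR the adjusted p was under 0.05 in 2 of the 6 fits that left out a sample, with a largest value of 0.150. The scaffold gene Dvl3 had 0.43 (adjusted p = 0.116), the membrane component Vangl2 0.26 (0.132) and its partner Prickle2 0.28 (0.136).

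Among the 24 Hippo genes, which encode the kinases, their regulators, YAP1, TAZ and the TEAD factors, 0 were called by edgeR or DESeq2. At an unadjusted p under 0.05 there were 7 (29.2%) with higher and 0 with lower values, against 14.1% and 15.4% of all tested genes. Values were positive for 18 of the 24, with a median log2 fold change of 0.16 against 0.00 over all tested genes. Frmd6, a membrane-linked activator of the kinases, had 97.1, 83.7 and 108 CPM in WT against 178, 153 and 149 CPM in Dlx2OE. Its log2 fold change was 0.73 (adjusted p = 0.0211, edgeR, and 0.000108, DESeq2). By edgeR the adjusted p was under 0.05 in 3 of the 6 fits that left out a sample and reached 0.0916. Tead1, a DNA-binding partner of YAP1, had 0.58 (adjusted p = 0.0613), the kinase genes Lats1 0.63 (0.0942) and Taok1 0.37 (0.0752). By DESeq2 the adjusted p-values were 0.00927, 0.0409 and 0.0586 in that order. Yap1 and Wwtr1 were added after their values were seen, as the genes the kinases act on. Yap1 itself had 0.28 (adjusted p = 0.247) and Wwtr1, which encodes TAZ, had 0.03.

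The next list holds genes that YAP1 and TEAD factors are known to switch on. Of its 21 tested members 0 were called higher and 3 lower, where 1.5% and 1.62% of all tested genes were. DESeq2 called 0 and 4 (19.0%), against 2.55% and 2.51%. At an unadjusted p under 0.05 there were 2 (9.52%) with higher and 7 (33.3%) with lower values, against 14.1% and 15.4%. Values were positive for 9 of the 21, and the median log2 fold change was -0.02, near the 0.00 of all tested genes. F3 had 36.7, 48.2 and 44.3 CPM in WT against 8.88, 8.50 and 8.94 CPM in Dlx2OE and fell by 2.30 on the log2 scale (adjusted p = 0.00089, edgeR), with an adjusted p under 0.05 in all 6 fits that left out a sample. Ccn2, a matricellular protein of connective tissue, had 12.5, 12.3 and 15.3 CPM in WT against 5.00, 6.02 and 6.17 CPM in Dlx2OE and fell by 1.22 (adjusted p = 0.0136), but its adjusted p was 0.0657 without WT 2 and 0.0514 without Dlx2OE 2. The forkhead gene Foxf2, named here after its values were seen because it is the other gene called, had 84.7 ± 23.7 and 28.6 ± 14.4 CPM and fell by 1.57 (adjusted p = 0.0454), a call that was lost in 4 of the 6 fits, with 0.133 as the largest value, and with scaling by library size alone (0.0583). Amotl2, which encodes an angiomotin that holds YAP1 at junctions, was higher by 0.91 (adjusted p = 0.0211), and Tgfb2, a growth factor, was lower with -0.61 (adjusted p = 0.0309). In the fits without 1 sample these 2 had an adjusted p under 0.05 in 3 and in 2 of 6. DESeq2 on all samples gave adjusted p-values of 1.5e-05 for Amotl2 and 0.00136 for Tgfb2.

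Smooth muscle genes were listed because LIX1 has been described in progenitors of that lineage. Of 11 tested members 0 were called higher and 1 lower (9.09%), where 1.5% and 1.62% of all tested genes were. DESeq2 gave the same counts, against 2.55% and 2.51%. At an unadjusted p under 0.05 there were 2 (18.2%) with higher and 5 (45.5%) with lower values, against 14.1% and 15.4% of all tested genes, and the median log2 fold change was -0.76. The gene called was Foxf1, a forkhead factor of mesenchyme around the gut, with 45.8, 52.2 and 59.4 CPM in WT against 25.2, 25.3 and 19.5 CPM in Dlx2OE. It fell by 1.17 (adjusted p = 0.0101, edgeR), with 0.0580 without WT 2. Srf, the factor that switches on contractile genes, was higher by 0.64 (adjusted p = 0.0204), and Synpo2, an actin-associated protein gene, also by 0.64 (adjusted p = 0.0291), each under 0.05 in 2 of the 6 fits without 1 sample. DESeq2 on all samples gave adjusted p-values of 0.000387 for Srf and 0.00167 for Synpo2. Myh11, the smooth muscle myosin heavy chain, had 1.20, 2.39 and 1.48 CPM in WT against 0.473, 0.701 and 0.923 CPM in Dlx2OE. Its samples did not overlap between genotypes, which held for 17.3% of all tested genes in the direction of a fall. The log2 fold change of Myh11 was -1.27 (SE 0.384, adjusted p = 0.0806, edgeR).

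**Figure D5:**
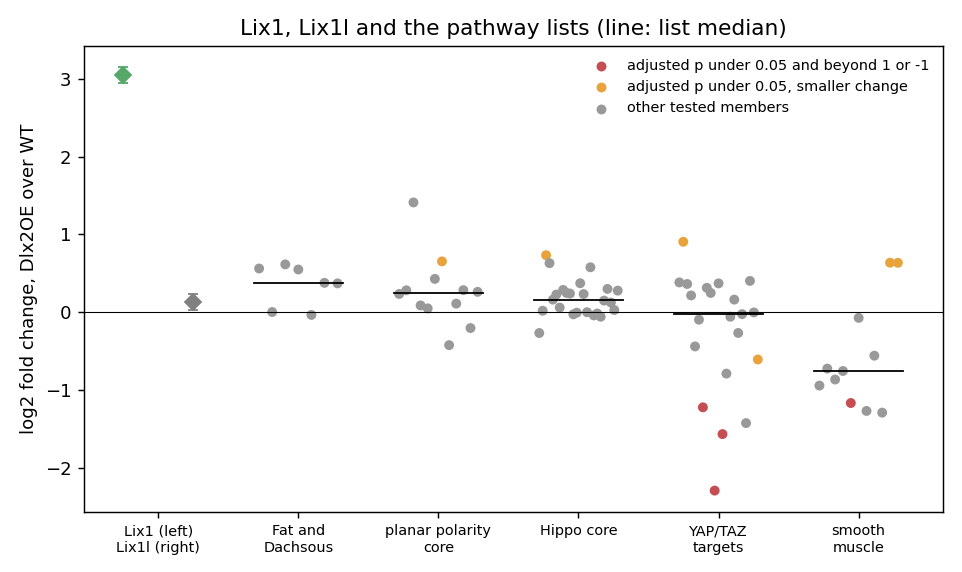
Log2 fold change (Dlx2OE minus WT) of each tested gene in the 5 pathway lists, with a line at the median of each list. The medians run from -0.76 for smooth muscle genes to 0.38 for Fat and Dachsous genes, and no listed gene comes near the 3.05 of Lix1.

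Levels of marker genes of the cell types in the tissue are given beside the Lix1 result, and their part in it was not tested. The summed level of 16 maxillary mesenchyme markers, all tested, was 2140 to 2521 CPM in WT against 2704 to 3165 CPM in Dlx2OE. Of these markers 3 were called higher (18.8%, against 1.5% of all tested genes). Values were positive for only 10 of the 16, and the median log2 fold change was 0.07 against 0.00 over all tested genes. The 12 neuron markers summed to 245 to 538 CPM in WT against 361 to 1918 CPM in Dlx2OE, highest in Dlx2OE 3, with 0 called by either tool. All 12 values were positive, with a median log2 fold change of 1.31. Higher values at an unadjusted p under 0.05 were found for 4 (33.3%), against 14.1% of all tested genes. Over the same 3 Dlx2OE samples Lix1 lay between 73.4 and 79.3 CPM, and its relation to neuron content was not tested. Erythroid markers summed to 3275 to 4352 CPM in WT against 1961 to 2539 CPM in Dlx2OE, and macrophage markers to 82.8 to 95.7 and 44.3 to 57.8 CPM, with 1 and 2 of 10 genes called lower by edgeR and 1 and 4 by DESeq2, against 1.62% and 2.51% of all tested genes. In each of these lists 7 of 10 genes (70.0%) were lower at an unadjusted p under 0.05, against 15.4% of all tested genes. Skeletal muscle, endothelium and glia lists had 0 genes called by edgeR, with 3 of 9, 3 of 9 and 1 of 5 genes lower at an unadjusted p under 0.05, where 15.4% of all tested genes were. DESeq2 called 1 glial gene and 0 in the other 2 lists. Their sums were 181 to 350, 336 to 475 and 128 to 140 CPM in WT against 79.0 to 232, 245 to 364 and 89.0 to 189 CPM in Dlx2OE, and the glial marker Foxd3 was at 0 in every library. Epithelial markers summed to 768 to 1341 CPM in WT against 588 to 1816 CPM in Dlx2OE, with 2 of 10 called lower. Neural progenitor markers summed to 278 to 392 and 287 to 439 CPM, with 1 of 8 tested called lower. Over all tested genes 1.62% were called lower.

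Since Lix1 is named for the limb, limb bud genes were followed as well. Hoxa11, Hoxa13, Hoxd11 and Hoxd12, which pattern the limb, were at 0 counts in all 6 libraries. Hoxd13, the remaining Hox gene of the list, was not at 0 in all 6 but did not pass the filter on low counts. Tbx5, a T-box factor of the forelimb, had 0 counts in each WT library and 22, 36 and 15 counts in Dlx2OE, at most 1.15 CPM. It was the 1 gene called of the 2 tested (adjusted p = 0.0150, edgeR), where 1.5% of all tested genes were called higher. Tbx5 passed the filter on low counts only through its Dlx2OE counts, so its call follows in part from that filter and is given as a description. The hindlimb factor Tbx4 had a log2 fold change of 0.88 (adjusted p = 0.0824). All 7 genes of the list together summed to 1.63 to 2.32 CPM in WT against 3.25 to 5.19 CPM in Dlx2OE. Lens and retina genes summed to 7.18 to 25.2 CPM in WT against 4.98 to 14.3 CPM in Dlx2OE, with 2 of 7 tested and 0 called by either tool or at an unadjusted p under 0.05.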

How the data were processed

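Per the labels, the authors selected poly-A RNA with poly-T beads and sequenced it as paired 150 bp reads, checked reads with FastQC, aligned them to mm10 with STAR 2.7.3a, and deposited the raw count per gene made by htseq-count (HTSeq 0.12.4) in union mode. The annotation release and the strand setting are not given in the sources used here. GENCODE M21 (GRCm38) gave symbols, positions, exon lengths and transcript sequences and matched 53706 of 53801 identifiers. Promoters are those of RefSeq.

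The test was that of edgeR 4.0.16 under R 4.3.3 (filterByExpr with a minimum count of 10, TMM scaling, quasi-likelihood F test on genotype, Benjamini-Hochberg adjustment over 17514 genes). An SE is the log2 fold change divided by the square root of F. A gene was called at the thresholds of the study's methods. The study used DESeq2, which is here an alternative (1.42.0). The floor of 3 counts was 0.0955 to 0.111 CPM and covers counting error only. Coding sequences were aligned with Biopython 1.88, and figures were drawn with matplotlib 3.10.9. Scripts were tested on simulated data.

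The 2 genes and all lists were chosen with earlier results of these data known. Named genes are Lix1, Lix1l and Dlx2, up to 4 tested genes of each pathway list with the smallest p, tested genes that start within 500 kb, and the 5 genes with the highest r. Yap1, Wwtr1, Foxf2, the genes next to Lix1 in order of p (Lef1, F3 and Zfhx3) and the genes named from the cell type lists (Tbx5, Tbx4, Foxd3 and the limb Hox genes) fall outside this rule and were chosen after their values were seen. Replicate numbers of the labels did not pair the samples. Alternatives were other scalings, filters and tools, a replicate block, the removal of 1 sample at a time, and calls at any fold change.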

Additional observations from a re-analysis of the deposited data

How the results depend on the processing

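Lix1 (log2 fold change 3.00 to 3.11) and Lix1l kept their direction under every alternative run and moved by less than 1 replicate SD. Counts over all genes moved more. The 262 genes called higher and 284 called lower became 447 and 440 with DESeq2, 506 and 497 without a filter on low counts, and 524 and 606 at any fold change. Leaving out each sample in turn gave 39 to 642 higher and 35 to 531 lower, with the lowest counts without WT 2 and the highest without Dlx2OE 1. The counts were also low without WT 1 (72 and 81), Dlx2OE 2 (129 and 58) and Dlx2OE 3 (139 and 115). In the 5 pathway lists 5 genes were higher at any fold change, and leaving out each sample gave 0 to 1 higher and 1 to 6 lower. The 1 higher was Amotl2, without WT 3 (log2 fold change 1.01) or Dlx2OE 2 (1.03). Samples with the same replicate number did not deviate together (correlations of -0.07, -0.21 and 0.07), and the fit with a replicate block called 202 and 196 genes, with 3.05 for Lix1 and 0.14 for Lix1l. The share of Lix1, 10.4% and 46.6%, was 11.8% and 50.2% with the length that leaves out the bases of Gm11578. That alternative was chosen after the data were seen and gives upper limits with regard to this copy. The cause of these changes was not tested. Counting error alone would give Lix1 a spread of 5.72% to 6.30% in WT, beside 6.85% measured between samples.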
